A study of Homo sapiens with 18 samples.

Results

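LNCaP cells, an androgen-dependent prostate cancer line, were compared after androgen with both lysine demethylases KDM1A and KDM7A partly depleted and without androgen with no depletion. The comparison shows how much of the androgen response stands against vehicle once the RNA of the 2 enzymes is reduced. It rests on 6 of the 18 libraries of the series, 3 with siRNA pools to KDM1A and KDM7A plus R1881 (dual knockdown) and 3 with scrambled siRNA plus vehicle (siScr vehicle), and it was made over all 17162 genes that had enough counts of the 60675 in the count tables. Libraries were placed in the 2 groups by their titles. The 3 LNCaP libraries with scrambled siRNA plus R1881 (siScr R1881) share every step but the targeting siRNA with the dual knockdown. Their values are given beside it for each gene list and for many, but not all, of the named genes. All cells were transfected with ON-TARGETplus siRNA, in pools, with DharmaFECT 2 as the carrier. They were held in RPMI-1640 without phenol red and with charcoal-stripped serum, a medium poor in steroids. R1881, a synthetic androgen, was given at 1 nM for 72 h. The vehicle of these libraries is DMSO in the RNA Seq methods, whereas the culture methods name ethanol for R1881. The dual knockdown differs from siScr vehicle in 2 ways at once, R1881 and the siRNA targets. Libraries with the targeting siRNAs plus vehicle, or with either siRNA pool alone, were not analysed here, so these 2 parts cannot be told apart within this comparison. LNCaP is 1 cell line, so the comparison holds for that line.

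Androgens are steroid hormones that change transcription, in part from DNA that carries short half-sites related to AGAACA. In luminal prostate cells they switch on secreted proteases, transporters, and enzymes of lipid and protein secretion, and they lower another set of genes. KDM1A removes methyl groups from lysines of histone H3 and is a subunit of the CoREST repressor complex. KDM7A is a Jumonji-type demethylase of repressive histone marks. Poly(A) RNA was sequenced as read pairs, and the deposited values are raw counts per gene. Total counts were 10485096 to 20154243 per library over the 9 LNCaP libraries. They were scaled to CPM, a gene's count relative to the library total, with edgeR's TMM factors, and groups were compared with edgeR's 2-sided quasi-likelihood test with Benjamini-Hochberg adjustment over all genes. Fold changes are given as log2 (log2FC). A gene is said to pass the test where its adjusted p is below 0.05, and to be called where its log2FC is also 1 or more in either direction. In bulk RNA, fewer cells that carry a transcript and less of it per cell cannot be told apart. The luminal keratins KRT8 and KRT18 were at 419.6 ± 31.7 and 234 ± 22.3 CPM (SD, n = 3) in siScr vehicle. The 8 luminal markers summed to 2727 to 2920 CPM in siScr vehicle, 4818 to 4856 CPM in siScr R1881 and 4683 to 5160 CPM in the dual knockdown. Of these 8, 4 were called up against vehicle in each R1881 group, where 6.12% (dual knockdown) and 5.68% (siScr R1881) of all genes were. In the dual knockdown 4 passed higher and 3 lower, beside 27.3% and 24.8% of all genes. The 16 markers of basal, stromal, endothelial and immune cells summed to 32.4 to 35.7 CPM in siScr vehicle. Their sum was 25.2 to 35.1 CPM in siScr R1881 and 27.2 to 31.9 CPM in the dual knockdown, and 11 of the 16 had too few counts to be tested. Of the other 5, the basal keratin KRT14 was called up, with 3 counts in vehicle and 67 in the dual knockdown (ratio 21.5, 95% exact interval 7.06 to 107), and the collagen COL3A1 was called down (−2.83). The sources do not say whether the 3 libraries of a group came from separate cultures, so p-values measure the spread between these libraries, which may be technical.

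The RNA of both siRNA targets was reduced and not removed. These counts do not measure the protein or the demethylase activity left in the cells. KDM1A (chromosome 1 from 23019448 to 23083689 in GRCh38) was at 115, 119 and 120.0 CPM in the siScr vehicle libraries, 104, 106 and 112 CPM in the siScr R1881 libraries and 49.0, 52.2 and 54.4 CPM in the dual knockdown libraries. All 3 dual knockdown libraries were below the other 6, and the log2FC against vehicle was −1.18 (SE 0.06, adjusted p = 7.1e-11). KDM7A (chromosome 7 from 140084746 to 140177035) was at 40.2, 43.4 and 36.9 CPM with siScr vehicle, 55.2, 64.0 and 58.6 CPM with siScr R1881 and 28.0, 31.5 and 33.6 CPM in the dual knockdown. Its siScr R1881 libraries were the highest of the 9 and its dual knockdown libraries the lowest, so that the log2FC against vehicle was −0.37 (SE 0.09, adjusted p = 0.0021) and under the fold threshold, while that against siScr R1881 was −0.93 (SE 0.09, adjusted p = 4.7e-05). The level left in the dual knockdown was 48.3% (95% interval 44.1% to 53%) of siScr R1881 for KDM1A and 52.5% (95% interval 46.2% to 59.7%) for KDM7A. For each gene, the 2-sided exact permutation test of the dual knockdown against vehicle gave p = 0.1, the smallest that 3 libraries against 3 allow.

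Against vehicle, the dual knockdown had 1050 genes called up and 1193 called down, which is 6.12% and 6.95% of the genes tested. Without targeting siRNA, R1881 gave 974 genes up and 1136 down, or 5.68% and 6.62%, against the same vehicle libraries. Of the 2243 genes called in the dual knockdown, 2141 had no overlap between the 3 libraries of each group, where 60.0% of all genes tested had none. The median log2FC was 1.60 for the genes called up and −1.47 for those called down, with 195 genes up and 114 down at a log2FC of 3 or more in size. Protein-coding genes made up 813 of the genes called up and 691 of those called down. With the adjusted p alone, 4683 genes were higher and 4262 lower, 27.3% and 24.8% of those tested, and the median of all genes was −0.03. The counts called ran from 1044 to 1141 up and from 1108 to 1307 down with each of the 9 libraries left out in turn.

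**Figure D1:**
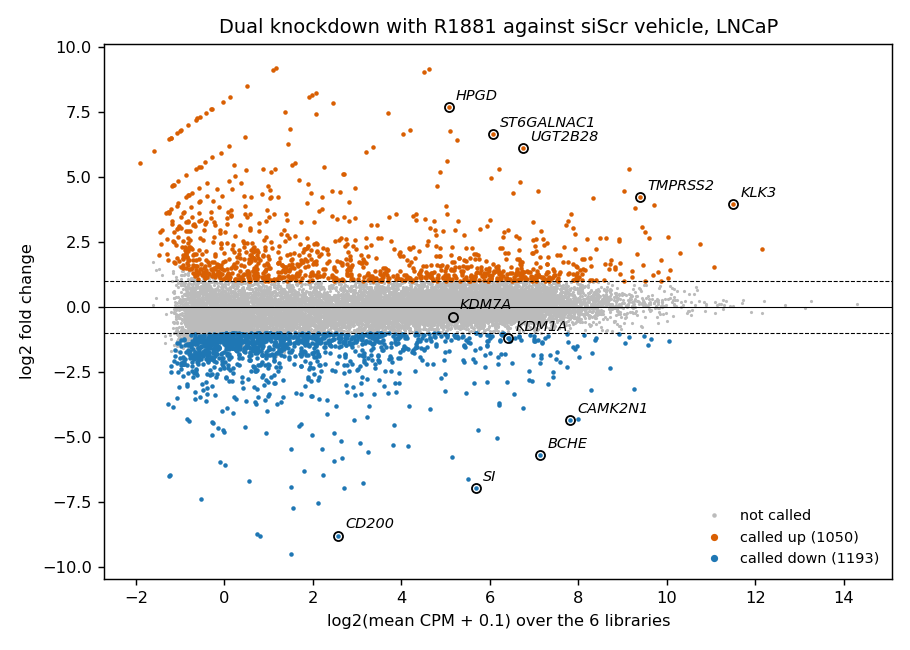
Each point is 1 of 17162 genes, with its log2(mean CPM + 0.1) over the 3 siScr vehicle and 3 dual knockdown libraries on the x axis and its log2FC, dual knockdown against vehicle, on the y axis. The 1050 genes called up are orange, the 1193 called down are blue, dashed lines mark a log2FC of 1 in either direction, and circles mark named genes: KLK3 lies at 3.97, BCHE at −5.69 and KDM1A at −1.18.

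Of the 26 genes listed as androgen-induced, 25 rose in the dual knockdown against vehicle, where 6.12% of all genes were called up, and the median log2FC of the 26 was 3.39 beside −0.03 over all genes. The same 26 had 25 called up in siScr R1881 against vehicle (5.68% of all genes), with a median of 3.51. The list had been drawn up with results of these libraries in view, so its direction is no independent evidence. The kallikreins of the list are serine proteases secreted into seminal fluid. KLK3, which encodes prostate-specific antigen, was at 366, 333 and 341 CPM in siScr vehicle, 4438, 4371 and 4701 CPM in siScr R1881 and 5811, 5514 and 4966 CPM in the dual knockdown. Both R1881 groups were far above vehicle, and the dual knockdown libraries lay above the siScr R1881 libraries, where 34.6% of all genes tested had no overlap between the R1881 groups. Its log2FC against vehicle was 3.97 (SE 0.07, adjusted p = 3.2e-17). KLK2, a protease that activates the KLK3 product, was at 29.6, 27.1 and 27.0 CPM in vehicle, 846, 805 and 929.9 CPM in siScr R1881 and 1171, 1109 and 1014 CPM in the dual knockdown (log2FC 5.30, adjusted p = 9.1e-18). KLK4 rose less, from 45.4, 43.6 and 46.4 CPM to 129, 132 and 135 CPM, a 2.93-fold change beside 2.72-fold in siScr R1881.

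The 250 bases before the start of KLK3 and of KLK2 are shown because these neighbours on chromosome 19 moved together, and those of TRPM8 because it rose with them and stood lower in the dual knockdown than in siScr R1881. SI and UGT2B15 are shown as genes that fell. All 5 were picked from the windows that hold a half-site. The sequences are RefSeq's (GRCh38.p14, 5′ to 3′ on the strand of the gene), and capitals mark the half-sites AGAACA and GGAACA, or their other strand TGTTCT and TGTTCC. KLK3 is at chr19:50854665-50854914, plus strand, KLK2 at chr19:50873189-50873438, plus strand, TRPM8 at chr2:233917123-233917372, plus strand, SI at chr3:165078497-165078746, minus strand and UGT2B15 at chr4:68670653-68670902, minus strand.
KLK3: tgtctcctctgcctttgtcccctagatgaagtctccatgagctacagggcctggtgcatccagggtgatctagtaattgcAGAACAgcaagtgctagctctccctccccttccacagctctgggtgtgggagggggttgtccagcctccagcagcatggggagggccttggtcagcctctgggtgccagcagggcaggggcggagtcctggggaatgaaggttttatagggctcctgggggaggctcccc
KLK2: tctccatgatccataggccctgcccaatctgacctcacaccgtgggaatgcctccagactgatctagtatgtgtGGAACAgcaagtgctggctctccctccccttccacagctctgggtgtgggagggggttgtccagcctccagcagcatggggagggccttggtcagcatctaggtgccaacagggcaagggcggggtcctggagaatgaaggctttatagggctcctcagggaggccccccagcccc
TRPM8: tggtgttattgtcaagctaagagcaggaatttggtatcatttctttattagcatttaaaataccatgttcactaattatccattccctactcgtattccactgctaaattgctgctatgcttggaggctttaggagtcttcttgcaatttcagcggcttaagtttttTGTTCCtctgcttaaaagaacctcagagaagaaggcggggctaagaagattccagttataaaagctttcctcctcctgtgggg
SI: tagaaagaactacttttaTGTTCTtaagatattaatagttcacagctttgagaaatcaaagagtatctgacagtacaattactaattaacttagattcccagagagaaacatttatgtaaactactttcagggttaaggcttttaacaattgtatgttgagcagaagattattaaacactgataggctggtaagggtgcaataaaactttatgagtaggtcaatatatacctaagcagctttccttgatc
UGT2B15: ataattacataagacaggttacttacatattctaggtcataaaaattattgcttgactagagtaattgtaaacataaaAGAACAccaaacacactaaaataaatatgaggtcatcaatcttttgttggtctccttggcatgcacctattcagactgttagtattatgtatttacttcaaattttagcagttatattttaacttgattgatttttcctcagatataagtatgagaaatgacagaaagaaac
The KLK3 half-site starts 170 bases before the start of the gene and that of KLK2 starts 176 bases before it. The KLK2 and KLK3 windows share a run of 80 identical bases. One or other half-site is in 22.2% of all 35116 RefSeq promoter windows of this length, many of them of genes not tested here, in 17.4% of the 966 windows of genes called up in the dual knockdown in 19.5% of the 922 windows of genes called down and in 16.7% of the 14053 windows of genes tested and not called. It is in 23.3% of the 30 windows of androgen-induced genes and 26.7% of the 15 windows of the androgen-repressed list, some genes having more than 1 window, and those of SLC45A3, FKBP5 and BCHE hold none. A match of these letters is a description and no evidence of binding. In the androgen-induced and androgen-repressed lists, 14 genes had no window, TMPRSS2 and CAMK2N1 among them.

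The membrane and transport genes of the list rose with the kallikreins. TMPRSS2, a serine protease of the cell surface whose promoter drives ETS fusions in many prostate tumours, was at 70.3, 65.4 and 69.2 CPM in vehicle, 1176, 1139 and 1277 CPM in siScr R1881 and 1264, 1321 and 1228 CPM in the dual knockdown. Its log2FC against vehicle was 4.22 (SE 0.07, adjusted p = 9.1e-18). SLC45A3, the prostate transporter also called prostein, rose from 37.1, 29.5 and 33.4 CPM to 601, 650.1 and 592 CPM in the dual knockdown and 548, 485 and 519 CPM in siScr R1881. The 2 R1881 groups of TMPRSS2 overlapped, while those of SLC45A3 did not. STEAP4, a metalloreductase of the membrane, had only 4 counts over the 3 vehicle libraries and was at 58.7, 66.9 and 57.6 CPM in siScr R1881 and 44.7, 47.9 and 44.3 CPM in the dual knockdown, a fitted log2FC of 9.06. TRPM8, the cold-sensing calcium channel, rose from 3.92, 4.22 and 3.89 CPM to 55.8, 62.1 and 63.8 CPM in the dual knockdown and 71.6, 82.1 and 74.1 CPM in siScr R1881. ABCC4, an exporter of cyclic nucleotides and prostaglandins, rose from 148, 151 and 142 CPM to 1225, 1279 and 1236 CPM in the dual knockdown and 1393, 1569 and 1483 CPM in siScr R1881. None of these 5 genes had a vehicle library that reached any R1881 library, where 60.0% of all genes tested had no overlap between vehicle and the dual knockdown and 53.3% had none between vehicle and siScr R1881.

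Regulators and metabolic enzymes in the list gave the same picture. FKBP5, a co-chaperone that binds steroid receptor complexes, was at 99.3, 105 and 101 CPM in vehicle, 1802, 2004 and 1949 CPM in siScr R1881 and 1560.2, 1568 and 1562 CPM in the dual knockdown. It rose 15.4-fold against vehicle in the dual knockdown and 18.8-fold in siScr R1881. ACSL3, which activates fatty acids, rose from 171, 180.4 and 171 CPM to 1288, 1274 and 1292 CPM in the dual knockdown and 1537, 1759 and 1608 CPM in siScr R1881. GNMT, the glycine methyltransferase that uses S-adenosylmethionine, went from 3.83, 3.43 and 4.71 CPM to 140.0, 131 and 108 CPM in the dual knockdown and 95, 101 and 105 CPM in siScr R1881. CAMKK2, a calcium-dependent kinase upstream of AMPK, was the smallest rise of the list, at 1.02 (2.03-fold) from 123, 123 and 118 CPM to 237, 247 and 255 CPM, beside 2.30-fold in siScr R1881. MED28, a subunit of the Mediator complex, was the exception: it was lower in the dual knockdown, 67.8, 63.9 and 70.4 CPM against 86.4, 86.6 and 83.2 CPM in vehicle, a log2FC of −0.34 (SE 0.06, adjusted p = 2.7e-04).

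**Figure D2:**
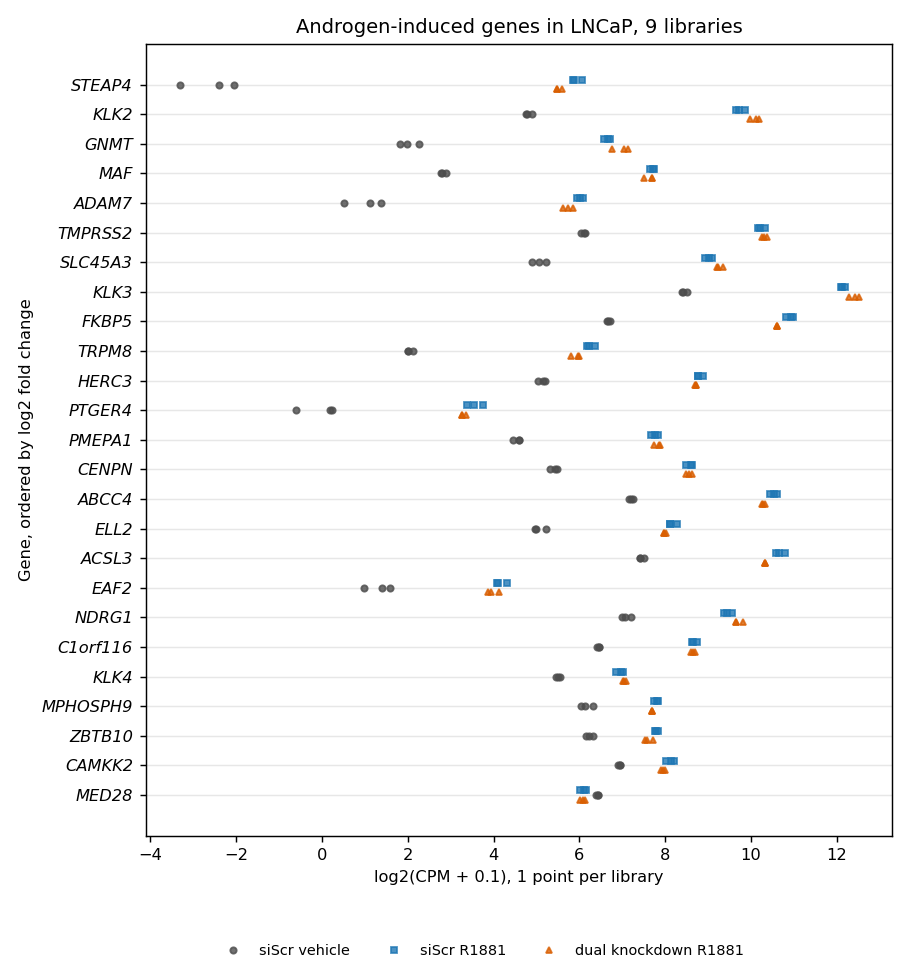
Each row is 1 androgen-induced gene (25 of the 26 are drawn), ordered by log2FC against vehicle, and each point is 1 library at its log2(CPM + 0.1), with siScr vehicle as circles, siScr R1881 as squares and the dual knockdown as triangles. In 24 rows both R1881 groups lie to the right of all 3 vehicle libraries; in MED28, at −0.34, they lie to the left.

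The comparison between the R1881 groups takes no difference from vehicle, although the vehicle libraries enter its estimate of spread, and it set the dual knockdown at 74.9% (STEAP4) to 128% (KLK2) of siScr R1881 over the 25 risers, with a median of 93.7%. None of the 26 androgen-induced genes was called in either direction there by edgeR, where 0.157% of all genes were called up and 0.128% down. By adjusted p alone, 5 of the 26 were higher and 6 lower in the dual knockdown, beside 8.27% and 5.89% of all genes. The 5 higher genes were KLK2 at 128% (log2FC 0.35, 95% interval 0.21 to 0.49), KLK3 at 121% (95% interval 110.3% to 132%), GNMT, NDRG1 and SLC45A3. The 6 lower genes were STEAP4 at 74.9% (95% interval 65.8% to 85.3%), ACSL3 at 78.6% (95% interval 72.4% to 85.3%), FKBP5 at 81.5% (95% interval 75.5% to 88.0%), TRPM8, ABCC4 and ZBTB10. TMPRSS2 did not pass, at 106% (95% interval 97.7% to 115%). For all 26 genes, the 95% interval of this difference lay inside a log2FC of −1 to 1.

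These differences were small, and several did not pass with single libraries left out or with a correction for GC content. Over the 13 genes of the androgen-induced and androgen-repressed lists that passed the test between the R1881 groups, 4 passed in all 9 fits with a library left out: KLK2, STEAP4, FKBP5 and ACSL3. Leaving out replicate 1, 2 or 3 of siScr R1881 left 2, 8 and 3 of the 13 that no longer passed, and leaving out replicate 1 or 2 of the dual knockdown left 6 each. Genes higher in the dual knockdown by adjusted p had a median transcript GC content of 59.9%, and genes lower had 41.4%, beside 48.2% over all genes tested. With each library's trend with GC content taken out, an alternative added after the data were seen, 8 of the 13 still passed, the 4 named above among them. Of the 26 androgen-induced genes, 1 then passed higher and 6 lower, where 582 and 548 of the 17162 genes tested did. KLK3 then stood at a log2FC of 0.17 (adjusted p = 0.064), GNMT at 0.11 (adjusted p = 0.5) and SLC45A3 at 0.05 (adjusted p = 0.63). The same correction left the comparison with vehicle at 1062 genes up and 1180 down, and at 25 of 26 androgen-induced genes called up.

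**Figure D3:**
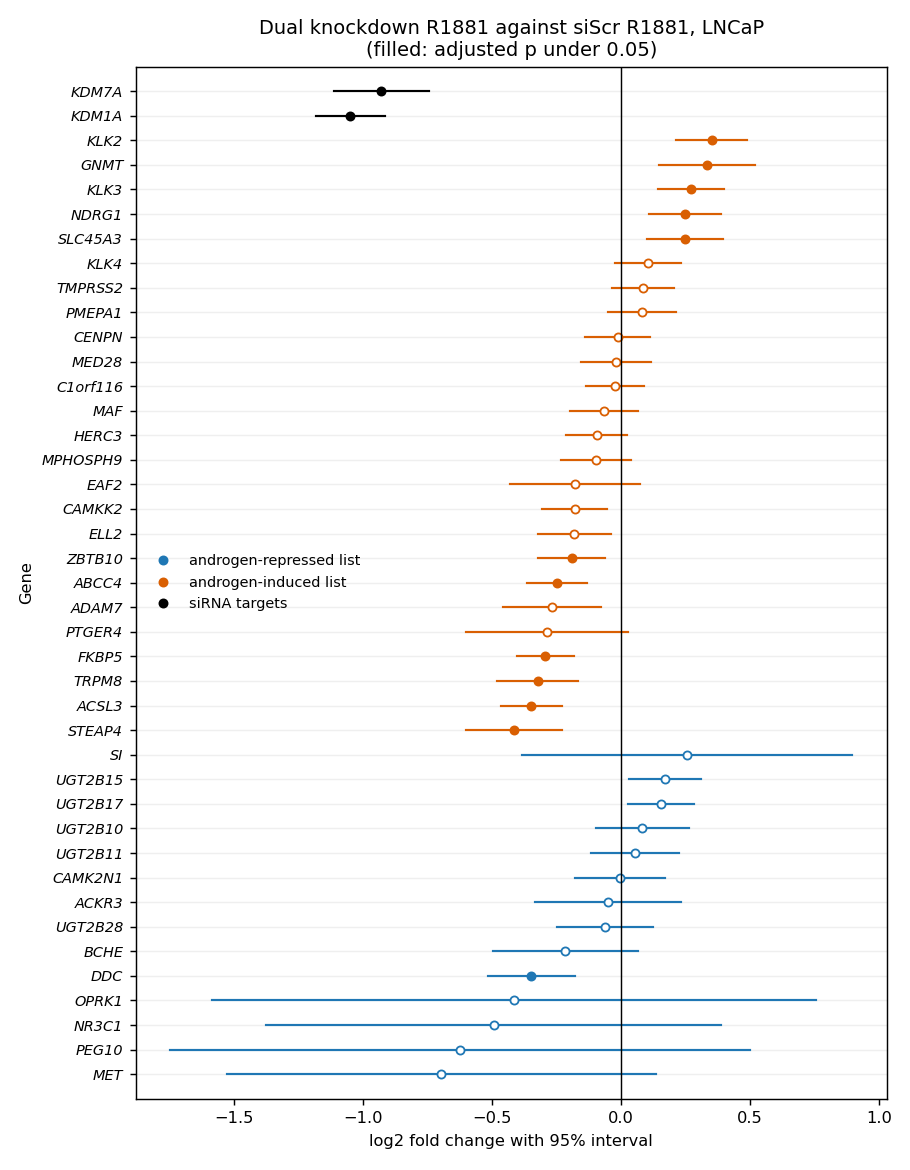
Each row is 1 gene (25 of 26 androgen-induced, 14 of 15 androgen-repressed and both siRNA targets are drawn), with its log2FC of the dual knockdown against siScr R1881 as a circle and its 95% interval as a line, filled where the adjusted p was under 0.05. The androgen-induced genes (orange) lie between −0.42 and 0.35, the androgen-repressed list (blue) between −0.70 and 0.26, and the siRNA targets (black) at −1.05 and −0.93.

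Most of the androgen-repressed list also lay below vehicle in the dual knockdown. Of the 15 genes listed as androgen-repressed, 9 were called down against vehicle, where 6.95% of all genes were. Another 3 were called up, where 6.12% were, and the median log2FC was −1.49. In siScr R1881, 8 were called down (6.62% of all genes) and 3 up (5.68%), with a median of −1.38. This list too was chosen with earlier results of these data known, so its direction is no independent evidence. BCHE, butyrylcholinesterase, was at 269, 303 and 259 CPM in vehicle, 6.31, 5.77 and 6.49 CPM in siScr R1881 and 5.58, 4.39 and 6.11 CPM in the dual knockdown. It fell, with a log2FC of −5.69 (SE 0.10, adjusted p = 5.3e-17), and its R1881 groups overlapped each other. SI, the intestinal disaccharidase sucrase-isomaltase, fell from 102, 110.0 and 92.5 CPM to 0.769, 0.856 and 0.750 CPM. CAMK2N1, an inhibitor of the calcium-dependent kinase CaMKII, was at 471, 407 and 407 CPM in vehicle, 20.6, 20.2 and 22.3 CPM in siScr R1881 and 20.1, 20.9 and 21.9 CPM in the dual knockdown (log2FC −4.35, adjusted p = 5.0e-17). DDC, the decarboxylase that makes dopamine and serotonin, fell from 492, 477 and 492 CPM to 27.8, 23.2 and 23.5 CPM. The chemokine receptor ACKR3 fell from 144, 129.6 and 134 CPM to 10.5, 10.3 and 10.4 CPM. The kappa opioid receptor OPRK1 fell from 13.0, 11.5 and 11.8 CPM to 0.321, 0.214 and 0.107 CPM. In all of these 6 genes every vehicle library lay above every R1881 library, beside the 60.0% and 53.3% of all genes without overlap given above.

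The other members did not all fall. The UGT2B enzymes, some of which inactivate androgens by attaching glucuronic acid, went both ways. UGT2B15 fell from 1149, 1117 and 1082 CPM to 452, 506 and 484 CPM, and UGT2B17 was lower at a log2FC of −0.74 (adjusted p = 2.7e-08). UGT2B28 rose from 2.49, 3.29 and 3.12 CPM to 219, 215 and 203 CPM, UGT2B11 from 40.0, 47.1 and 47.7 CPM to 1018, 1050.3 and 954 CPM, and UGT2B10 from 9.97, 10.9 and 12.4 CPM to 45.7, 40.9 and 44.8 CPM. These genes have near-identical copies, so reads may have been divided or lost between them in counting. NR3C1, the glucocorticoid receptor, was near 1 CPM in every group and did not pass, at a log2FC of −0.67 (adjusted p = 0.18). MET, the hepatocyte growth factor receptor, and PEG10, a gene of retroviral origin, were called down from means of 1.91 and 1.09 CPM in vehicle, and their differences between the R1881 groups had wide intervals, −1.53 to 0.13 and −1.75 to 0.50 on the log2 scale. Against siScr R1881, no member of the list was called by edgeR, where 0.157% of all genes were called up and 0.128% down, and 2 of the 15 passed the test, both lower, where 8.27% of all genes passed higher and 5.89% lower. DDC was 1 of them, at a log2FC of −0.35 (SE 0.08, adjusted p = 0.01), and it did not pass without siScr R1881 replicate 2 (adjusted p = 0.058) or dual knockdown replicate 2 (adjusted p = 0.064).

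**Figure D4:**
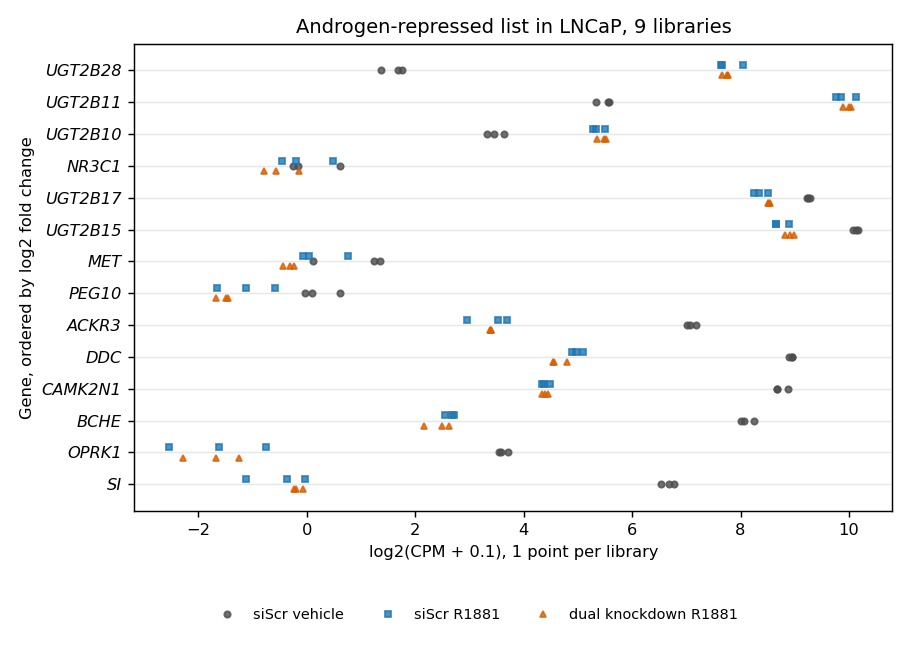
Each row is 1 gene of the androgen-repressed list (14 of the 15 are drawn), ordered by log2FC against vehicle, and each point is 1 library at its log2(CPM + 0.1). UGT2B28, UGT2B11 and UGT2B10 lie to the right of vehicle in both R1881 groups, NR3C1 overlaps it, and the 3 dual knockdown libraries of the other 10 genes lie to the left of all 3 vehicle libraries.

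The largest rises outside the lists were of genes close to silent in vehicle. HPGD, which degrades prostaglandins, went from 0.356, 0.371 and 0.219 CPM to 69.4, 67.7 and 62.4 CPM, a log2FC of 7.70 (SE 0.16, adjusted p = 3.1e-16). CCDC141, a coiled-coil protein, had 4 counts in the 3 vehicle libraries together and was at 46.9, 51.9 and 48.6 CPM in the dual knockdown. ORM2, a plasma acute-phase protein, had 2 counts in vehicle and 567 in the dual knockdown, a ratio of 273 (95% exact interval 75.3 to 2262, counting error only). Each of these 3 genes was also called up in siScr R1881, where HPGD stood at 7.89 and CCDC141 at 9.43. PGC, a pepsinogen, rose from 0.267, 0.186 and 0.493 CPM to 35.1, 40.5 and 33.1 CPM. CHRNA2, a nicotinic receptor subunit, rose from 0.534, 0.510 and 0.767 CPM to 64.6, 74.1 and 66.1 CPM. TRGC1, a T cell receptor constant gene known to be transcribed in prostate epithelium, rose from 0.0890, 0.232 and 0.0548 CPM to 26.7, 27.1 and 23.2 CPM. TRGC1, ORM2 and UGT2B28 have near-identical copies, so their counts are uncertain. AL109615.3, with no known role, rose to a log2FC of 6.16 (SE 0.32, adjusted p = 4.6e-11).

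Of the 12 largest rises, 5 also passed the test between the R1881 groups: F5 and STEAP4 were lower in the dual knockdown, and S100P, PGC and ST6GALNAC1 higher. Over all genes, 8.27% passed higher there and 5.89% lower. The 12 were picked by their rise in the dual knockdown, and this test uses the same libraries. PGC no longer passed without siScr R1881 replicate 2 (0.42, adjusted p = 0.053) or dual knockdown replicate 2 (0.31, adjusted p = 0.12), and ST6GALNAC1, at 0.19, no longer passed in 7 of the 9 fits with a library left out. F5 and S100P differed most. F5, coagulation factor V, was at 1.07, 0.928 and 0.657 CPM in vehicle, 137, 149.7 and 119.6 CPM in siScr R1881 and 73.0, 76.3 and 76.6 CPM in the dual knockdown. The dual knockdown stood between the other groups without overlap, at 55.7% (95% interval 49.6% to 62.4%) of siScr R1881 (log2FC −0.85, adjusted p = 4.7e-05). S100P, a calcium-binding protein, was at 0.445, 0.186 and 0.384 CPM in vehicle, 21.3, 16.7 and 22.0 CPM in siScr R1881 and 39.1, 30.9 and 27.6 CPM in the dual knockdown. It was higher than in siScr R1881 by a log2FC of 0.69 (SE 0.13, adjusted p = 0.0044). Both differences were under the fold threshold, and both passed the test with each library left out in turn (highest adjusted p 0.0011 for F5 and 0.032 for S100P) and with the GC trend taken out (adjusted p = 1.2e-05 and 0.0053).

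The largest falls against vehicle were mostly of genes close to 0 in the dual knockdown. CD200, a membrane glycoprotein that restrains immune cells, had 616 counts in vehicle and 1 in the dual knockdown, a ratio of 639 (95% exact interval 114 to 25283). SLITRK3, a synaptic adhesion protein, fell from 91.8, 92.4 and 84.2 CPM to 0.705, 0.696 and 1.29 CPM. PLA2G2A, a secreted phospholipase, fell from 68.6, 66.3 and 73.7 CPM to 1.28, 1.61 and 0.910 CPM, a log2FC of −5.77 (SE 0.16, adjusted p = 9.7e-15). KCNJ3, a potassium channel, fell from 16.1, 19.2 and 16.5 CPM to 0.385, 0.0535 and 0.0536 CPM. CBLN2, a secreted synapse organiser, ended with 5 counts over the 3 dual knockdown libraries after 645 in vehicle. PLD1, a phospholipase, and ABCA1, the exporter of cholesterol, fell, with log2FC of −5.26 and −5.18. SI, OPRK1 and BCHE, described above, were among the 12 largest falls too, with AC073174.1 (−5.93) and PCDH11Y, a protocadherin with a near-identical copy on the X chromosome. None of these 12 genes passed the test between the R1881 groups (lowest adjusted p 0.31, for BCHE). Over all genes, 8.27% passed higher there and 5.89% lower. Several of the 12 held few counts in both R1881 groups, so the test had little room to pass. CD200 had 3 counts in siScr R1881 and 1 in the dual knockdown, with a 95% interval of 6.7% to 223% of siScr R1881.

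Genes of fatty acid and cholesterol synthesis stood above vehicle as a group. Of 23 tested, 15 were called up and 0 down by edgeR, where 6.12% of all genes were called up, all 23 passed the test on the higher side, where 27.3% of all genes did, and the median log2FC was 1.26. In siScr R1881, 14 were called up (5.68% of all genes) and the median was 1.46. FASN, the fatty acid synthase, was at 1788, 1376 and 1641 CPM in vehicle, 7376, 5576 and 6515 CPM in siScr R1881 and 6896, 7961 and 7654 CPM in the dual knockdown. Its R1881 groups overlapped, both well above vehicle. ELOVL7, which lengthens saturated fatty acids, rose from 9.26, 9.32 and 6.41 CPM to 173, 168 and 180.2 CPM, a log2FC of 4.39 (SE 0.10, adjusted p = 6.6e-16). ELOVL5, its counterpart for polyunsaturated fatty acids, rose 6.47-fold. The list's other gene had too few counts to be tested.

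Secretory and glycosylation genes rose in part. In the list for the endoplasmic reticulum (ER) and the unfolded protein response, 9 of 26 were called up and 0 down, 22 passed on the higher side and 2 on the lower, with a median log2FC of 0.77. Over all genes 6.12% were called up, and 27.3% passed higher and 24.8% lower. In siScr R1881 the list had 7 called up (5.68% of all genes) and a median of 0.64. Between the R1881 groups, 7 of the 26 passed higher and 1 lower, where 8.27% and 5.89% of all genes did. With the GC trend taken out, 3 passed higher there and 0 lower. DNAJB9, an ER co-chaperone, rose from 13.1, 12.2 and 12.3 CPM to 39.2, 38.0 and 36.6 CPM, and PDIA5, a disulfide isomerase, from 23.5, 24.3 and 23.9 CPM to 73.2, 74.0 and 65.1 CPM. CREB3L4, an ER-bound transcription factor abundant in prostate, rose to a log2FC of 1.38 (SE 0.07, adjusted p = 4.5e-11). SDF2L1, an ER chaperone subunit, rose by 1.36. The stress factor DDIT3 went the other way, at −0.32 (adjusted p = 0.003), as did ASNS, asparagine synthetase, at −0.21 (adjusted p = 0.012). ASNS did not pass without siScr vehicle replicate 3 (adjusted p = 0.064), dual knockdown replicate 2 (adjusted p = 0.099) or dual knockdown replicate 3 (adjusted p = 0.073). In the glycosylation list, 6 of 10 were called up and all 10 passed on the higher side, beside the same 6.12% and 27.3% of all genes, with a median log2FC of 1.43. In siScr R1881 the glycosylation list also had 6 called up (5.68% of all genes), with a median of 1.53. ST6GALNAC1, the sialyltransferase that makes the sialyl-Tn antigen, was at 1.25, 1.21 and 1.42 CPM in vehicle, 122, 117 and 111 CPM in siScr R1881 and 136, 134 and 127 CPM in the dual knockdown (log2FC 6.67, adjusted p = 9.1e-18). CSGALNACT1, which starts chondroitin chains, rose from 1.78, 2.50 and 2.25 CPM to 27.4, 27.7 and 26.3 CPM. UAP1 and PGM3, enzymes on the way to UDP-N-acetylglucosamine, rose 5.84-fold and 3.80-fold. Of the polyamine list, 3 of 11 were called up in the dual knockdown, where 6.12% of all genes were, and 3 of 11 in siScr R1881, where 5.68% were. In the dual knockdown these were SMS (2.65), SAT1 (2.23) and ODC1 (1.25), the enzymes for spermine synthesis, for spermine and spermidine acetylation and for putrescine synthesis.

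**Figure D5:**
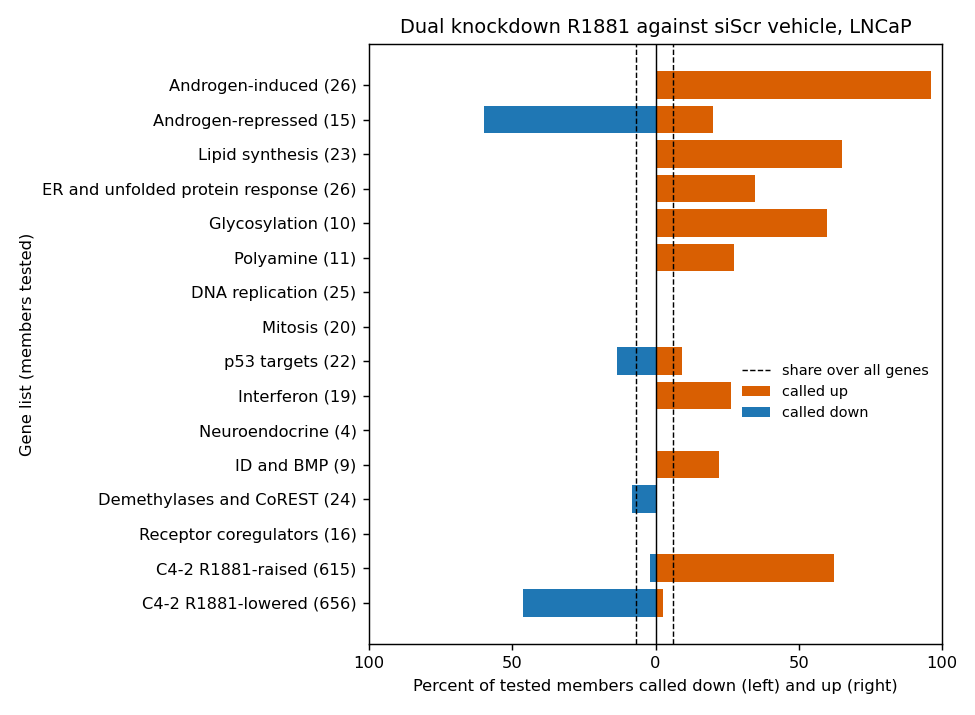
Each bar is the percent of a list's tested members (number in brackets) called up (orange, right) or down (blue, left) in the dual knockdown against vehicle, with dashed lines at the 6.12% and 6.95% of all genes. The androgen-induced bar reaches 96.2%, the androgen-repressed list splits into 60% down and 20% up, and DNA replication, mitosis, neuroendocrine and coregulator genes have no bar.

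Genes of proliferation differed from vehicle by less than the fold threshold. Of 25 DNA replication genes none was called by edgeR, while 13 passed the test on the higher side and 1 on the lower, where 27.3% of all genes passed higher and 24.8% lower, and the median log2FC was 0.24. In siScr R1881, 10 passed higher and 3 lower, where 23.5% and 23.2% of all genes did, with a median of 0.16. Between the R1881 groups, 7 of the 25 passed higher and 1 lower, where 8.27% and 5.89% of all genes did. With the GC trend taken out, 1 passed higher there and 0 lower. FEN1, a flap endonuclease, was at 52.6, 46.6 and 51.4 CPM in vehicle and 82.0, 78.3 and 79.9 CPM in the dual knockdown (log2FC 0.68, adjusted p = 3.1e-07). E2F1, the S phase transcription factor, was higher by 0.63 (adjusted p = 1.8e-04) and RRM2, a ribonucleotide reductase subunit, by 0.57 (adjusted p = 1.1e-06). E2F1 also passed higher between the R1881 groups, though not without siScr R1881 replicate 2 (0.39, adjusted p = 0.069). Of 20 mitosis genes none was called by edgeR, 2 passed higher and 4 lower, beside the same 27.3% and 24.8%, and the median was 0.03. With the GC trend taken out, 5 of the 20 passed higher and 3 lower, where 5073 and 4503 of the 17162 genes tested did. In siScr R1881, 2 passed higher and 4 lower, beside the same 23.5% and 23.2%, with a median of −0.02. MKI67, the proliferation marker, was at a log2FC of −0.24 (adjusted p = 0.008) and did not pass without dual knockdown replicate 1 (−0.18, adjusted p = 0.058), and CCNB1, cyclin B1, was at 0.02 (adjusted p = 0.81). Of 22 p53 targets, 2 were called up (GDF15 and TNFRSF10B) and 3 down (SESN1, TP53INP1 and BTG2), 9.09% and 13.6% of the list beside 6.12% and 6.95% of all genes. In siScr R1881, 2 were called up and 2 down, 9.09% each way beside 5.68% and 6.62% of all genes. Between the R1881 groups, 5 of the 22 passed higher and 5 lower, where 8.27% and 5.89% of all genes did. With the GC trend taken out, 1 passed higher there and 5 lower. GDF15, a stress cytokine, rose from 228, 153 and 188 CPM to 623, 722 and 629 CPM, and SESN1, a stress-responsive inhibitor of mTOR signalling, fell from 212, 237 and 222 CPM to 62.4, 61.7 and 60.8 CPM. CDKN1A, the p21 cell cycle inhibitor, passed at a log2FC of 0.34. Of 13 neuroendocrine genes, 9 had too few counts to be tested. None of the other 4 was called by edgeR, where 6.12% of all genes were called up and 6.95% down, and 1 of the 4 passed higher against vehicle. In siScr R1881, 1 of the 4 passed lower (23.2% of all genes), and between the R1881 groups 1 passed higher (8.27% of all genes). With the GC trend taken out, 0 of the 4 passed between the R1881 groups. DLL3 also did not pass there without siScr R1881 replicate 2 or 3, or without any one of the dual knockdown replicates. Its log2FC was 0.56 to 0.63 in these fits, with adjusted p from 0.051 to 0.084.

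Among genes of BMP signalling, the receptors BMPR1B and BMPR1A rose, from 6.41, 8.58 and 5.75 to 69.6, 66.6 and 74.7 CPM and from 27.8, 30.7 and 31.0 to 76.1, 73.8 and 71.0 CPM, and they made up the 2 called of 9 tested, where 6.12% of all genes were called up and 6.95% down. In siScr R1881, 2 of the 9 were called up and 1 down, where 5.68% and 6.62% of all genes were. ID1 and ID3, inhibitors of bHLH transcription factors that BMP signals switch on, took another course. ID1 was at 13.6, 8.63 and 15.3 CPM in vehicle, 9.05, 9.73 and 5.75 CPM in siScr R1881 and 16, 18.6 and 18.8 CPM in the dual knockdown. ID3 was at 38.8, 28.4 and 42.6 CPM in vehicle, 22.0, 26.7 and 21.5 CPM in siScr R1881 and 48.1, 49.9 and 43.7 CPM in the dual knockdown. The dual knockdown libraries of both genes lay above all siScr R1881 and all vehicle libraries, where 34.6% and 60.0% of all genes had no overlap. Against siScr R1881, the log2FC was 1.13 (SE 0.19, adjusted p = 0.0028) for ID1 and 1.02 (SE 0.12, adjusted p = 7.7e-04) for ID3. Both still passed with the GC trend taken out, at 0.94 (adjusted p = 0.0057) and 0.86 (adjusted p = 0.00076), under the fold threshold. The ID1 difference fell to 0.92 (adjusted p = 0.02) without siScr R1881 replicate 3, and that of ID3 went under the fold threshold with any one of siScr R1881 replicate 1, siScr R1881 replicate 3 and dual knockdown replicate 2 removed (0.98, 0.96 and 0.97). Of the interferon list, 5 of 19 were called up, where 6.12% of all genes were, and 4 in siScr R1881, where 5.68% were. Among the 5 was OAS1, an RNA-sensing synthetase that was at 0.267, 0.835 and 0.931 CPM in vehicle, 2.85, 3.10 and 3.93 CPM in siScr R1881 and 5.96, 4.07 and 3.96 CPM in the dual knockdown. OAS1 and OAS2 (3.33) were called in every fit with a library left out, while IFIT1, OASL and IFI27 were lost with single libraries left out. IFIT1 dropped to 0.99 without dual knockdown replicate 1, OASL to 0.84 (adjusted p = 0.068) without the same library and IFI27 to 0.89 without siScr vehicle replicate 2 and 0.91 without dual knockdown replicate 2 (adjusted p = 0.088 in both). None of the 19 was called between the R1881 groups by edgeR, and 3 passed there, all higher, where 8.27% of all genes passed higher. With the GC trend taken out, 0 of the 19 passed there. IFI6 also did not pass there without siScr R1881 replicate 2 (0.42, adjusted p = 0.14).

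Of 24 demethylase and CoREST genes, 2 were called down, KDM1A itself and RCOR2, a CoREST subunit. That is 8.33% beside 6.95% of all genes, and 1 of the 2 is the siRNA target. On the lower side 17 passed the test in the dual knockdown and 12 in siScr R1881, where 24.8% and 23.2% of all genes did. Between the R1881 groups, 7 passed lower, KDM1A among them, and 2 higher, where 5.89% and 8.27% of all genes did. With the GC trend taken out, 6 passed lower there and 0 higher, where 548 and 582 of the 17162 genes tested did. RCOR2 was at 4.89, 4.36 and 4.49 CPM in vehicle, 1.26, 0.865 and 1.14 CPM in siScr R1881 and 1.92, 1.66 and 2.14 CPM in the dual knockdown. KDM6A, a demethylase of H3K27, was lower, at a log2FC of −0.89 (SE 0.06, adjusted p = 5.8e-10), and it was also lower in siScr R1881, at −0.80. JMJD1C, a Jumonji-domain relative, was at −0.95 against vehicle in the dual knockdown and at −0.53 in siScr R1881. PHF8, the close relative of KDM7A, was higher, at 0.50 (adjusted p = 4.4e-06). No receptor coregulator of 16 was called by edgeR, and 9 passed lower and 3 higher, where 24.8% and 27.3% of all genes did. In siScr R1881, 1 was called down (6.25% beside 6.62% of all genes), and 9 passed lower and 3 higher, where 23.2% and 23.5% of all genes did. Between the R1881 groups, 7 of the 16 passed lower and 2 higher, where 5.89% and 8.27% of all genes did. With the GC trend taken out, 3 of them passed lower there and 0 higher. NCOA1, the steroid receptor coactivator SRC-1, was at 169.7, 180.2 and 158 CPM in vehicle, 109.9, 110.3 and 106 CPM in siScr R1881 and 93.6, 90.5 and 92.6 CPM in the dual knockdown. FOXA1, a pioneer transcription factor of prostate epithelium, did not pass, at −0.08 (adjusted p = 0.29), and GATA2, a zinc finger transcription factor, was lower, at −0.82 (adjusted p = 1.8e-07). Both lists hold long transcripts, with a median longest transcript of 5993 and 7538 bases beside 3122 over all genes tested, and genes that passed on the lower side against vehicle had a median of 4312. The part of transcript length in these results was not tested. With the GC trend taken out, 3 of the 24 demethylase and CoREST genes were called down against vehicle and 18 passed lower.

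R1881-responsive genes taken from C4-2, the androgen-independent line derived from LNCaP, gave a set that LNCaP values had not chosen. In C4-2 with scrambled siRNA, R1881 raised 728 genes and lowered 811 against vehicle by the same thresholds, with 1 of the 3 vehicle libraries at 3182604 counts. These vehicle libraries were placed in C4-2 by their titles, while their cell line field names LNCaP, so the set rests on the titles. Of 615 raised genes tested in LNCaP, 383 were called up and 12 down in the dual knockdown against vehicle, where 6.12% of all genes were called up, and the median log2FC was 1.37. In siScr R1881 the same 615 had 390 up and 7 down, where 5.68% and 6.62% of all genes were, with a median of 1.43. Of 656 lowered genes tested, 304 were called down and 18 up in the dual knockdown, where 6.95% of all genes were called down, with a median of −0.97. The corresponding values in siScr R1881 were 326, 15 and −1.05, where 6.62% of all genes were called down and 5.68% up. Directly between the R1881 groups, the raised genes had a median log2FC of −0.07, with 31 higher and 65 lower of 615 by adjusted p, and the lowered genes had a median of 0.09, with 35 higher and 28 lower of 656, where 8.27% of all genes were higher and 5.89% lower. By call, 1 raised gene was up and 1 down there, 0.163% of the set each way beside 0.157% and 0.128% of all genes, and 7 lowered genes were up and 1 down, 1.07% and 0.152% of the set.

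Over all genes, 27 were called up and 22 down in the dual knockdown against siScr R1881. The numbers moved with single libraries. Leaving out siScr R1881 replicate 1, 2 or 3 gave 57, 10 and 16 genes up, and the second of these gave 6 down. Dual knockdown replicate 1 or 2 left out gave 10 and 11 up and 4 and 6 down, and siScr vehicle replicate 1 left out gave 36 down. With the GC trend taken out they were 3 and 10. CNTN5, a neural adhesion protein, was called in every fit with a library left out. It had 420 counts in vehicle, 22 in siScr R1881 and 2 in the dual knockdown, a ratio of 218 between vehicle and the dual knockdown (95% exact interval 59.9 to 1805). Against siScr R1881, the CNTN5 log2FC was −3.32 (95% interval −4.79 to −1.85, adjusted p = 0.0069), and siScr R1881 was itself at −4.23 against vehicle. BHLHA15, the secretory cell transcription factor MIST1, was at 1.07, 0.742 and 0.548 CPM in vehicle, 2.41, 1.44 and 2.73 CPM in siScr R1881 and 5.32, 3.85 and 6.11 CPM in the dual knockdown. Its call between the R1881 groups (log2FC 1.19, adjusted p = 0.0082) was lost without siScr R1881 replicate 2 (0.98, adjusted p = 0.045) and with the GC trend taken out (0.65, adjusted p = 0.13). LRRC39, a leucine-rich repeat protein of muscle, was at 1.97, 1.51 and 1.77 CPM in siScr R1881 and 0.513, 0.910 and 0.857 CPM in the dual knockdown. Its call was lost without dual knockdown replicate 1 (−0.99, adjusted p = 0.066). Across all genes tested, 89.0% differed by a log2FC under 0.5 in size between the R1881 groups.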

How the data were processed

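Poly(A) RNA was sequenced from LNCaP cells. Per the labels and the submitters' processing notes, reads were trimmed with Trim Galore, aligned to GRCh38 with STAR and counted with featureCounts v1.5.0-p1 over Ensembl 83 genes. The authors deposited raw counts per gene, 1 table per library, and no use of strand is stated, so reads of overlapping or near-identical genes are uncertain. Genes were kept with edgeR's filterByExpr (at least 10 counts in a library of median size, 15 in all), scaled by TMM and fitted with edgeR 4.0.16 (R 4.3.3) with 1 spread over the 9 LNCaP libraries (glmQLFit, glmQLFTest, Benjamini-Hochberg adjustment). CPM were computed from these counts. Groups came from the labels and tests were 2-sided. The siScr R1881 and dual knockdown comparisons share the vehicle libraries. The members and gene lists were chosen with earlier results of these data known. Named genes were the siRNA targets, both androgen lists, up to 4 of each other list, the 12 largest changes each way with a mean of at least 5 CPM and groups that did not overlap, and up to 6 each way between the R1881 groups (mean of at least 1 CPM). MKI67, CCNB1, CDKN1A, DDIT3, ASNS, JMJD1C, PHF8, FOXA1, GATA2, ID1 and ID3 and some others were chosen after their values were seen. Exact Poisson intervals of count ratios cover counting error only. Alternatives were DESeq2 1.42.0, RLE factors, other filters, glmTreat, a replicate block, only the 2 groups compared, each library left out, and GC content offsets, the last added after seeing the data. On simulated data (16761 genes), the dual knockdown against vehicle recovered 93 of 97 changes of 1.5 on the log2 scale and 100 of 100 of 3, with 4 unchanged genes called. The simulation gave all genes the same spread and held no GC trend, so these numbers do not measure the error in the real data. Replicates differed by more than sampling noise (chi-square per gene 3.2 to 11.5). A few genes are counted in their lists but not reported by name here. Figures were drawn with matplotlib 3.10.9.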

Additional observations from a re-analysis of the deposited data

Results flagged for a closer look

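Among the siRNA targets, the members of the gene lists and the other named genes, 3 genes passed against the same vehicle libraries in both R1881 groups but in opposite directions. For these 3, edgeR's quasi-likelihood test of the difference between the R1881 groups passed too. ID1 stood at a log2FC of 0.52 (adjusted p = 0.026) against vehicle in the dual knockdown and −0.61 (adjusted p = 0.019) in siScr R1881, a difference of 1.13 (adjusted p = 0.0028). ID3 stood at 0.37 (adjusted p = 0.015) and −0.65 (adjusted p = 0.00048), a difference of 1.02 (adjusted p = 0.00077). The comparisons with vehicle leaned on single libraries. For ID1, the dual knockdown no longer passed without siScr vehicle replicate 2 (0.30, adjusted p = 0.13), dual knockdown replicate 2 (0.50, adjusted p = 0.073) or dual knockdown replicate 3 (0.49, adjusted p = 0.072), nor did siScr R1881 without siScr vehicle replicate 3 (−0.40, adjusted p = 0.13) or siScr R1881 replicate 3 (−0.39, adjusted p = 0.12). For ID3, the dual knockdown no longer passed without siScr vehicle replicate 2 (0.22, adjusted p = 0.073) or dual knockdown replicate 2 (0.34, adjusted p = 0.055). KDM7A, a target of the siRNAs, stood at −0.37 (adjusted p = 0.0021) and 0.56 against vehicle, a difference of −0.93 (adjusted p = 4.7e-05).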

How the results depend on the processing

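Against vehicle, 25 androgen-induced genes were called up, except 24 with at least 10 counts in every library and 24 with glmTreat. The androgen-repressed genes called down were 9, except 6 with that count filter, 7 with glmTreat and 11 with no fold threshold. With each library left out both lists stayed at 25 and 9, and KDM1A and KDM7A stayed lower, at −1.21 to −1.14 and −0.42 to −0.29 with each library left out. Genes called up and down in the dual knockdown numbered 613 and 643 with at least 10 counts in every library, 4683 and 4262 with no fold threshold, and 598 and 379 with glmTreat against a 2-fold change; siScr R1881 gave 573 and 592, 4025 and 3977, and 584 and 355. Between the R1881 groups these were 11 and 8, 1420 and 1011, and 0 and 0 with glmTreat (18 and 12 at an unadjusted p under 0.05), with 12 and 10 by DESeq2, 3 and 10 with GC content offsets, and 35 down with no filter and 34 with only the 2 groups compared. That comparison ranged from 10 to 57 up and from 4 to 36 down with a library left out, so its counts are the least firm. Of the C4-2 genes, 236 raised and 191 lowered ones were called in LNCaP with at least 10 counts in every library, and 140 lowered ones with glmTreat. With a library left out, siScr R1881 gave 974 to 1018 up and 1009 to 1205 down, and the C4-2 sets 377 to 391 and 259 to 310. The stricter count filter tests fewer genes, and other causes were not tested. With the replicate number as a block, the dual knockdown had 1049 genes up and 1165 down against vehicle, and 29 and 20 against siScr R1881. Deviations of same-numbered libraries correlated at −0.095 to 0.10, so the numbers do not pair the libraries. Depth limits genes near 0 counts, where ratios carry wide intervals.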
